A study of Mus musculus with 8 samples.

Results

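The ribosome biogenesis factors described here are 40 nucleolar and RNA polymerase I genes that make, modify and assemble the ribosome's RNA. They were chosen by gene name, with no threshold on a measured value. Earlier results of these data, the high values of tumor 7 included, were known when the list was made. All probe sets that the platform annotation assigns to 1 of these genes alone were taken, which gave 82 of the 34958 single-gene probe sets of the array. These stood for 39 of the 40 genes, among 18194 genes in all, and Mrto4 was not analysed here. The data were 8 arrays of total RNA from untreated tumors of LSL-MYCN;Dbh-iCre mice, all labelled as neuroblastomas, with 1 array per tumor. In these mice a human MYCN transgene with a CAG promoter at the ROSA26 locus lies behind a transcriptional stop that Cre removes, and Cre is driven by the regulatory sequences of Dbh, the dopamine beta-hydroxylase gene of noradrenergic cells. The tumors are described as carrying both transgenes, and the paper calls the mice of its expression profiles heterozygous. The mouse model was kept on a mixed strain background. Tumors 1 to 6 were adrenal tumors, and tumors 7 and 8 were tumors of the superior cervical ganglion, which belongs to the sympathetic chain in the neck. Age at excision is not given per tumor in the sources used here. Normal adrenals were not analysed here, so all comparisons are among tumors.

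Ribosome biogenesis starts in the nucleolus, where RNA polymerase I copies the ribosomal DNA repeats into a long precursor RNA. Small nucleolar ribonucleoproteins then guide the methylation and pseudouridylation of that precursor, and separate sets of assembly factors cut it and fold it into the small and the large ribosomal subunit. Genes for these factors are among the best known targets of MYC proteins, and MYCN, the neuroblastoma oncogene expressed in this model, belongs to that family. The nucleolus is often enlarged in cells with high MYC activity.

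The deposited values are on a log2 scale, so a difference of 1 is a 2-fold difference. Where a gene had several probe sets, the one with the highest average was used. Values of different probe sets depend on their probes, so levels were compared between tumors and never between genes. A gene was called detected in a tumor when it exceeded the 95th percentile of the array's 84 probe sets for taste, olfactory and vomeronasal receptors, a limit that lay between 6.71 and 7.21 in the 8 arrays. Tests covered 16254 genes, those with a log2 value over 5 in 2 or more tumors.

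Some arrays stood apart from the others before any of these genes was considered. In tumor 7, 10 of the 11 measured noradrenergic neuroblast markers had their lowest value, and the mean of the list, after each gene was centred on its own mean, was -2.88 against 0.20 to 0.63 in the other 7 tumors. The main probe set of mouse Mycn stood at 7.96 in tumor 7 and between 11.59 and 12.74 elsewhere, and whether it also reads the human transgene was not tested. The marker values of tumor 7 go against its label as a neuroblastoma, so it is called here by its number. Of all genes tested, 17.3% were highest and 26.4% lowest in tumor 7. Skeletal muscle markers were highest there for 8 of 10 genes. Their list mean was 1.35 in tumor 7, 0.75 in tumor 8 and -0.54 to -0.16 in the adrenal tumors, with 8 of the 10 genes detected in tumor 7 and 7 in tumor 8. All 12 liver markers were detected in tumor 6, with a list mean of 5.03. In tumor 1 the 3′ probe set of the Gapdh control exceeded the 5′ probe set by 5.51, whereas the range elsewhere was 0.47 to 1.57. This measure rises as RNA breaks down. In bulk tissue, fewer cells of a type and less RNA per cell cannot be told apart. The site comparison is therefore also given without tumor 7. The count of genes highest in tumor 7 and the median difference of that tumor are also given without tumor 1. The SD of each gene and the fit of tumor 7 against the adrenal tumors are not given without tumor 1.

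All 39 genes were detected in all 8 tumors, whereas 61.2% of the genes tested were. The median SD of the 39 genes over all 8 tumors was 0.38, against 0.26 for all genes tested, and without tumor 7 these medians were 0.21 and 0.23, so the 39 genes varied about as much as other genes outside tumor 7. After centring each gene, the mean of the 39 genes lay between -0.23 and -0.03 in 7 tumors and at 0.73 in tumor 7.

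Tumor 7 held the highest value of the 8 tumors for 33 of the 39 genes, or 84.6%. The corresponding share was 17.3% of all genes tested and 20.3% of the genes detected in all 8 tumors. In tumor 7 every one of the 39 genes exceeded the mean of the remaining 7. The difference had a median of 0.88, a 1.85-fold difference, and ranged from 0.08 for Ddx18 to 1.77 for Rrp12. Over all genes tested its median was -0.07. For 17 of the 39 genes, 43.6%, the difference was at least 1, as it was for 4.59% of the genes tested. Without tumor 1 the count of genes highest in tumor 7 was 36 and the median difference 0.95. These values describe 1 tumor, and its high values were known when the genes were chosen.

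**Figure D1:**
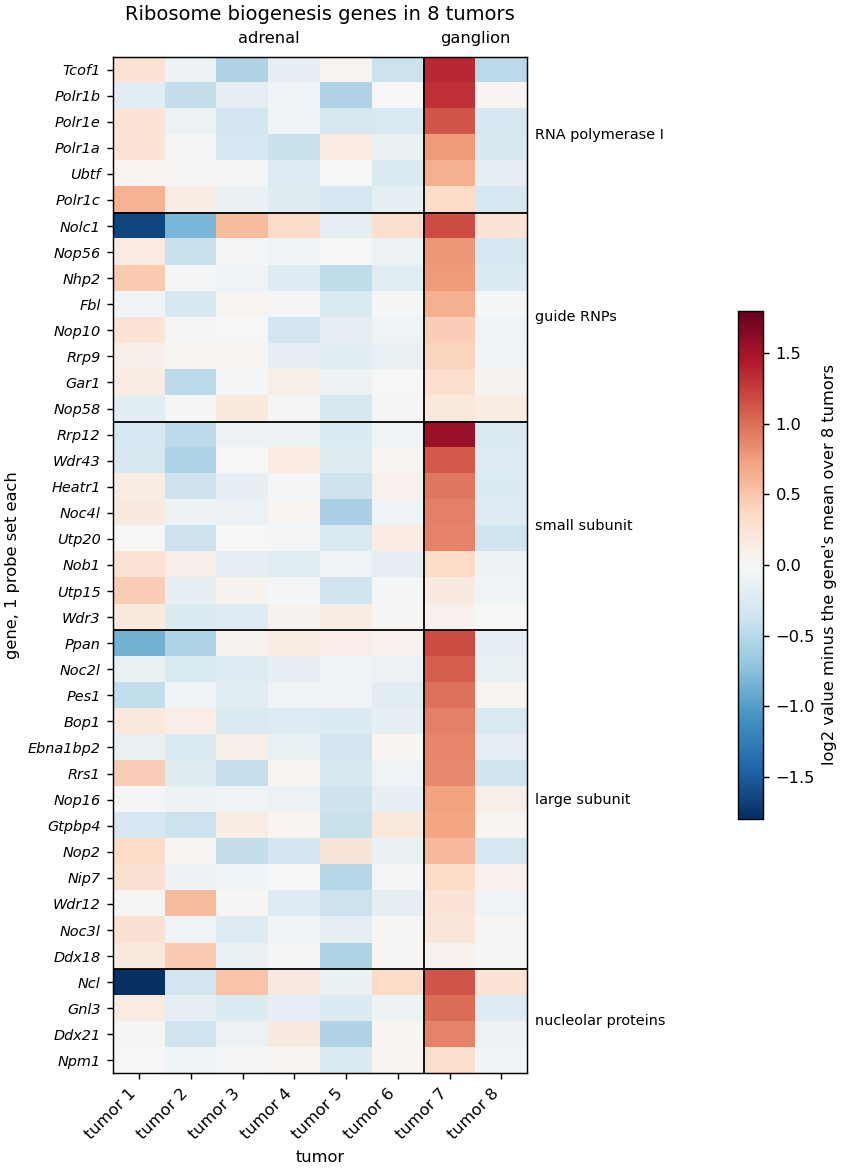
Each row is 1 of the 39 ribosome biogenesis genes, grouped by role, each column is a tumor, and the colour is the log2 value minus that gene's mean over the 8 tumors. Tumor 7 is the darkest red column in every role group, whereas tumor 8, from the same site, resembles the adrenal tumors, and the darkest blue cells are Ncl and Nolc1 in tumor 1.

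The site comparison asked whether ganglion tumors differed from adrenal tumors. None of the 39 genes passed a limma fit with a Benjamini-Hochberg adjusted p under 0.05, and the lowest adjusted p among them was 0.90. Of all genes tested, 3 passed, or 0.0185%, namely Acta1 and Tnnt3, both genes of striated muscle, and Clvs2, which were looked up after their values were seen. At an unadjusted p under 0.05 in limma there were 4 of the 39 genes, all higher in ganglion tumors, and 761 of all genes. These 4 were Nop16, with a difference of 0.55 ± 0.18 (SE), Polr1b with 0.91 ± 0.30, Pes1 with 0.70 ± 0.23 and Noc2l with 0.65 ± 0.26. Without tumor 7 the same differences were 0.24 for Nop16, 0.28 for Polr1b, 0.23 for Pes1 and 0.05 for Noc2l. The estimated difference was positive for all 39 genes, with a median of 0.36 against -0.03 for all genes. Its direction depended on tumor 7, since without that tumor 22 of the 39 estimates turned negative. The 95% confidence intervals were wide, extending from 0.33 to 1.36 on either side of the estimate. They are not adjusted for the number of genes, and even Polr1b, with an interval of 0.23 to 1.59, was not called. The smallest difference that could have been called was not determined.

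Tumor 8 lay inside the range of the 6 adrenal tumors for 34 of the 39 genes, above it for 3 and below it for 2. Its median difference from the adrenal mean was -0.03. With the probe sets used, the 3 genes above the range were Polr1b, Pes1 and Nop16. For these genes alone, both ganglion tumors then exceeded all 6 adrenal tumors. That made 7.69% of the 39 genes, against 2.31% of all genes tested. Second probe sets of Pes1 and Nop16, detected in all 8 tumors, put tumor 8 inside the adrenal range, at 8.90 and 7.23. A second probe set of Nip7, also detected in all 8, put both ganglion tumors above it, tumor 7 at 8.60 and tumor 8 at 8.18. No source used here states whether each tumor came from its own mouse, so p-values measure only the spread between these tumors.

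With tumor 8 left out, limma compared tumor 7 alone with the 6 adrenal tumors, under the assumption that a lone ganglion tumor varies as the adrenal tumors do. The 39 genes and the other lists were chosen with the high values of tumor 7 known. Calls and adjusted p-values from this fit, here and below, therefore describe tumor 7 and are not tests. In that fit 13 of the 39 genes, 33.3%, were higher and none was lower, whereas 2.86% of all 16210 genes tested were higher. Over all genes the calls were balanced, with 464 higher and 488 lower. The 13 genes were Polr1b, Polr1e, Tcof1, Utp20, Heatr1, Wdr43, Rrp12, Pes1, Bop1, Nop16, Noc2l, Ebna1bp2 and Gnl3. Their adjusted p-values ran from 0.0030 to 0.046, and in each of the 13 tumor 7 exceeded the highest of the other tumors by at least 0.62. With tumor 7 left out instead, none of the 39 genes and 8 genes in all were called.

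**Figure D2:**
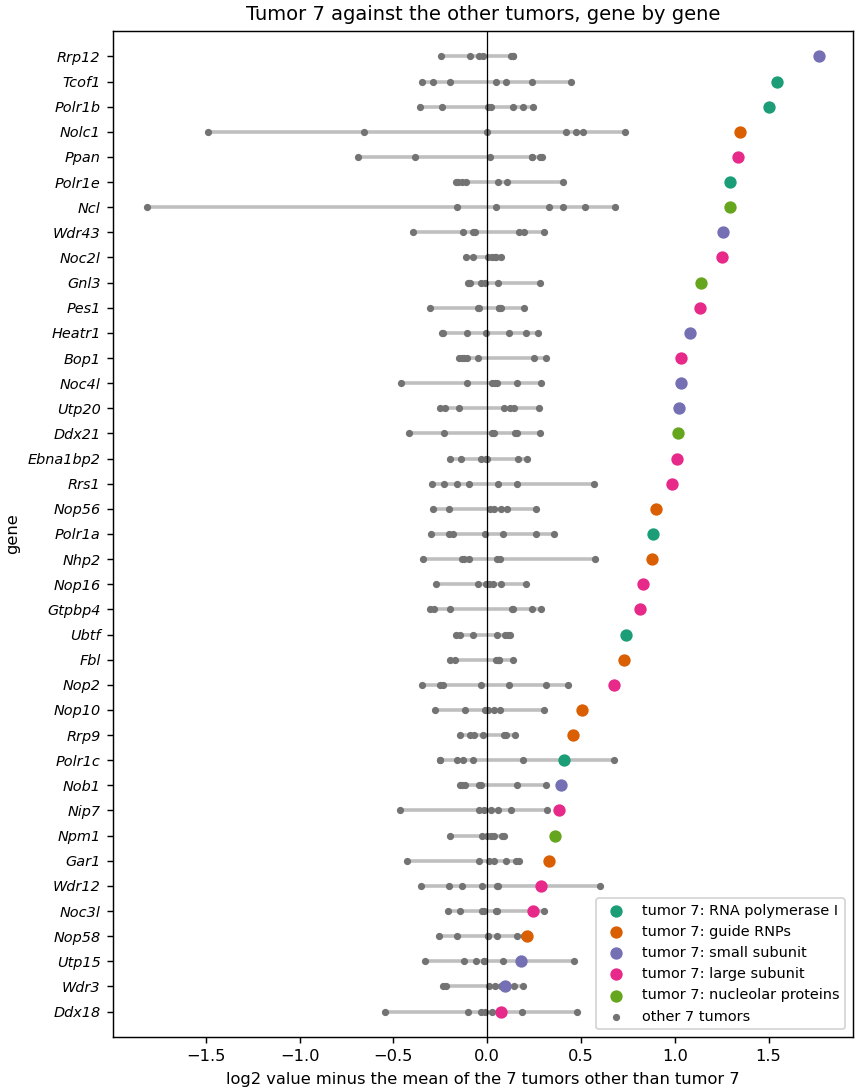
Each line is 1 gene, the coloured point is tumor 7 and the grey points are the other 7 tumors, all as log2 values minus the mean of those 7 tumors, and the grey bar spans their range. The coloured points run from 0.08 for Ddx18 to 1.77 for Rrp12 and lie beyond the grey range for 33 of the 39 genes.

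The RNA polymerase I group held 6 genes, of which 5 were highest in tumor 7, with a median difference of 1.09. Polr1b, the second largest subunit of the polymerase, had adrenal values from 8.44 through a median of 8.80 to 8.99, with 10.29 in tumor 7 and 9.04 in tumor 8. Both ganglion tumors were above the adrenal range, tumor 8 by little. The difference of tumor 7 from the other 7 tumors was 1.50, or 2.83-fold, and the adjusted p without tumor 8 was 0.0099 in limma.

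Tcof1 encodes treacle, which joins polymerase I transcription to pre-rRNA modification. It ranged from 8.66 to 9.45 in the adrenal tumors, with a median of 9.08, and stood at 10.55 in tumor 7 and 8.71 in tumor 8. Only tumor 7 was outside the adrenal range, at 2.92 times the mean of the others. The adjusted p without tumor 8 was 0.024 in limma.

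Polr1e, a subunit that helps the polymerase to start and elongate, was between 8.36 and 8.93 in the adrenal tumors (median 8.50), at 9.82 in tumor 7 and at 8.37 in tumor 8. Tumor 7 was 1.29 above the mean of the others, with an adjusted p of 0.021 in limma without tumor 8. The largest subunit, Polr1a, spanned 8.31 to 8.96 in adrenal tumors with a median of 8.64, and was 9.49 in tumor 7 and 8.42 in tumor 8. Its difference of 0.88 was not called in the fit without tumor 8 (limma adjusted p = 0.12), and its probe sets disagreed, as described further on. Ubtf, the upstream binding factor that keeps ribosomal DNA open, was 0.74 higher in tumor 7 than in the others, and 0.61 above the next tumor. Polr1c, shared by polymerases I and III, was the exception of the group. It reached 11.22 in adrenal tumor 1, above the 10.95 of tumor 7, with an adrenal median of 10.45 and 10.29 in tumor 8.

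The guide ribonucleoprotein group held 8 genes, and all 8 were highest in tumor 7, although by smaller steps, with a median difference of 0.62 and none called in the fit without tumor 8. Box C/D particles methylate ribosomal RNA. Their methyltransferase, fibrillarin (Fbl), was 0.73 higher in tumor 7 than the mean of the others, and Nop56, a core scaffold of the particle, 0.90 higher. Nop58, the scaffold protein that pairs with Nop56, behaved otherwise. It ranged from 11.33 to 11.78 in the adrenal tumors (median 11.59), and was 11.79 in tumor 7 and 11.74 in tumor 8, so tumor 7 led by 0.012 only. The SD of Nop58 over the 8 tumors was 0.17.

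Rrp9, which binds the U3 small nucleolar RNA, had adrenal values between 8.84 and 9.14 with a mean of 8.99, against 9.45 in tumor 7 and 8.97 in tumor 8. Box H/ACA particles convert uridine to pseudouridine, and 3 of their core proteins are among the 39 genes. The fourth, the pseudouridine synthase Dkc1, was counted with the other genes of the pathway, and was 1.14 higher in tumor 7 than in the others (limma adjusted p = 0.044 without tumor 8). Nop10 ranged from 12.74 through 13.03 to 13.32 in the adrenal tumors, and was 13.53 in tumor 7 and 13.03 in tumor 8. Nhp2 was 0.88 and Gar1 0.33 higher in tumor 7 than the mean of the other tumors. Nop10, Nhp2 and Gar1 were all highest in tumor 7 and next highest in tumor 1, and the size of the gap differed between them.

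Nolc1, a nucleolar chaperone of both kinds of particle, was the most variable gene of the group, with an SD of 0.88. Its adrenal values ran from 8.99 through a median of 10.72 to 11.22, with 11.83 in tumor 7 and 10.90 in tumor 8. Tumor 1 held the lowest value and tumor 2 the next, 9.83. The difference of tumor 7 was 1.35, yet the fit without tumor 8 gave a limma adjusted p of 0.37, beside an SD of 0.85 among the adrenal tumors.

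Among the 8 genes of small subunit processing, 6 were highest in tumor 7, 5 by at least 1, and 4 were called in the fit without tumor 8. Rrp12, which accompanies the pre-40S particle out of the nucleus, showed the largest difference of the 39 genes. It was 7.69 to 8.07 in the adrenal tumors (median 7.99), 9.70 in tumor 7 and 7.89 in tumor 8. Tumor 7 was 3.41-fold above the mean of the others, with an adjusted p of 0.0030 in limma without tumor 8. Among all genes tested, the difference lay at the 98.4th percentile.

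Wdr43 and Heatr1, components of the UTP-A complex that is loaded on pre-rRNA during transcription, were 1.26 and 1.08 higher in tumor 7. Heatr1 ranged from 9.52 through 9.82 to 10.04 in the adrenal tumors and stood at 10.85 in tumor 7 and 9.66 in tumor 8. Utp20, a late component of the small subunit processome, was 1.02 higher, and Noc4l, another processome protein, 1.03 higher, the latter with a limma adjusted p of 0.068 without tumor 8.

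The remaining genes of this group moved less. Utp15, also of UTP-A, had adrenal values from 9.70 to 10.49, with a median of 10.01, and was 10.21 in tumor 7 and 9.97 in tumor 8. Wdr3, of the UTP-B complex, lay between 11.11 and 11.53 with an adrenal median of 11.40, against 11.44 in tumor 7 and 11.35 in tumor 8. For both, tumor 1 was highest and tumor 7 fell inside the adrenal range. Nob1, the nuclease that makes the 3′ end of 18S rRNA, was 0.40 higher in tumor 7 than in the others and 0.080 above tumor 1. The small difference of Utp15, 0.18, depended on the probe set, since a second one detected in all tumors was highest in tumor 7 with a difference of 0.73.

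Large subunit assembly was represented by 13 genes, 10 of them highest in tumor 7, with a median difference of 0.83 and 5 called in the fit without tumor 8. The PeBoW complex, which MYC is known to induce and which processes the precursor of 28S and 5.8S rRNA, consists of Pes1, Bop1 and Wdr12. Pes1 was 1.14 and Bop1 1.03 higher in tumor 7, and both were called. Wdr12 ranged from 9.59 to 10.55 in the adrenal tumors (median 9.91), with 10.23 in tumor 7 and 9.92 in tumor 8. Its highest value was in tumor 2, so the probe set used for the third subunit did not share the order of the first pair.

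Ppan, the Peter Pan homologue needed for maturation of the large subunit, was the most variable gene of this group, with an SD of 0.59. In the adrenal tumors it ran from 8.73 through a median of 9.66 to 9.72, and it was 10.76 in tumor 7 and 9.44 in tumor 8. The low values belonged to tumors 1 and 2. The difference of tumor 7 was 1.34, and it was not called without tumor 8 (limma adjusted p = 0.10).

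Noc2l, a NOC family protein of pre-60S transport that also regulates histone acetylation, was almost constant outside tumor 7, from 9.46 to 9.65 in the adrenal tumors, 9.62 in tumor 8 and 10.83 in tumor 7. Its difference of 1.25 had a limma adjusted p of 0.0048 without tumor 8. Noc3l, of the same family, ranged from 8.14 through 8.32 to 8.65 in the adrenal tumors, with 8.59 in tumor 7 and 8.39 in tumor 8, and was highest in tumor 1. A second probe set of Noc3l, detected in 7 tumors, was highest in tumor 7, by 0.73 over the mean of the others.

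Rrs1, which brings the 5S ribonucleoprotein into the particle, had adrenal values of 10.87 to 11.73 with a median of 11.14, against 12.15 in tumor 7 and 10.93 in tumor 8. Tumor 7 was 0.99 above the mean of the others. Ebna1bp2, a binding partner of Rrs1, was 1.01 higher and was called. Nop16 was 0.83 higher and called, whereas Gtpbp4, a nucleolar GTPase of 60S assembly, was 0.81 higher, Nop2, an rRNA methyltransferase, 0.67 and Nip7, a 60S factor, 0.38, and these 3 were not called. Ddx18, a DEAD-box helicase, showed the smallest difference of the 39 genes with the probe sets used. Its adrenal values spanned 9.79 to 10.82, with a median of 10.33, and tumor 7 (10.41) and tumor 8 (10.32) lay inside that range. A second probe set of Ddx18, detected in all 8 tumors, was highest in tumor 7 with a difference of 0.62.

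The last group held 4 nucleolar proteins of broader function, all highest in tumor 7. Npm1, nucleophosmin, had the lowest SD of the 39 genes, 0.15. It was 13.43 to 13.71 in the adrenal tumors (median 13.65), 13.98 in tumor 7 and 13.62 in tumor 8. These values lay near the upper end of the scale, which reached 15.27. The difference of 0.36 was not called without tumor 8 (limma adjusted p = 0.32). Gnl3, nucleostemin, a GTPase of proliferating cells, was 1.14 higher in tumor 7 and was called.

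Ddx21, the helicase that couples polymerase I and II transcription to rRNA processing, ranged from 9.62 through 10.12 to 10.32 in the adrenal tumors, with 11.05 in tumor 7 and 10.07 in tumor 8. The difference of 1.02 was not called (limma adjusted p = 0.073). Ncl, nucleolin, was the most variable of the 39 genes, with an SD of 0.91. Its adrenal values ran from 10.85 through a median of 12.85 to 13.34, and it was 13.95 in tumor 7 and 13.06 in tumor 8. The low end was tumor 1 alone, as the next lowest value was 12.50 in tumor 2.

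The low values of tumor 1 depended on the probe set. Ncl was read by 4 further probe sets. One of them showed 11.37 in tumor 1 and 10.72 to 11.26 in the other adrenal tumors. Tumor 1 was then the highest adrenal tumor instead of the lowest. The further Ncl probe sets detected in all 8 tumors put tumor 1 below the mean of all others, with differences of -0.54 and -0.35. A second probe set of Npm1 was lowest in tumor 1, at 11.80, against 12.43 to 13.18 in the other adrenal tumors, where the probe set used gave 13.66 in tumor 1. In Nolc1 the gap of tumor 1 to the mean of all others was -1.89 with the probe set used and -0.49 and -0.92 with the others. The large Gapdh difference of tumor 1 stood beside these values, and its part in them was not tested.

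**Figure D3:**
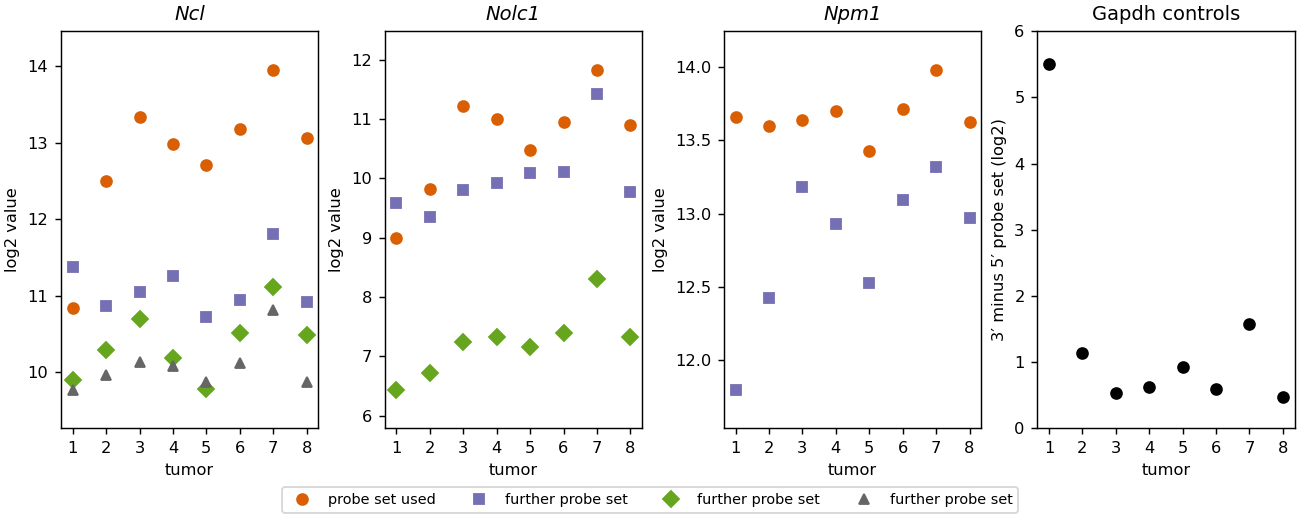
The first 3 panels give the log2 values of every probe set of Ncl, Nolc1 and Npm1 detected in at least 6 tumors, by tumor, and the last panel gives the 3′ minus 5′ difference of the Gapdh control on each array. Tumor 1 is the lowest in the used probe sets of Ncl and Nolc1 and in the further probe set of Npm1, and its Gapdh difference of 5.51 is above the 0.47 to 1.57 of the other arrays.

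The pattern of tumor 7 was recovered by most probe sets. Of the 82 probe sets, 70 were detected in all 8 tumors, 7 in some and 5 in none. Tumor 7 was highest in 58 of the 70, or 82.9%, against 20.5% of all 15801 single-gene probe sets detected in all tumors. Of the 57 without the _s_at or _x_at ending, by which the array design marks probes shared with other sequences, 46 were highest in tumor 7. In 29 of the 39 genes every probe set detected in all 8 tumors was highest in tumor 7, and in 3 genes no such probe set was.

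In 7 genes, Polr1a, Ubtf, Nop10, Utp15, Pes1, Wdr12 and Ddx18, the probe sets detected in all tumors disagreed on whether tumor 7 was highest. Polr1a had 2 further detected probe sets, which gave tumor 7 0.60 above and 0.39 below the other tumors, and 2 that were detected in no tumor. A second probe set of Pes1 gave 8.35 in tumor 7, the lowest of the 8 tumors, and 0.45 below the mean of the others. In Wdr12 the second probe set was highest in tumor 7, by 0.98, where the probe set used differed by 0.29. Heatr1, Ncl and Wdr12 each had 1 probe set detected in no tumor beside 1 or more detected in all 8. A second probe set of Ubtf was highest in tumor 1, with a difference of 0.05 for tumor 7, and a second one of Nop10 was also highest in tumor 1, with -0.01 for tumor 7. The Ncl probe sets detected in all tumors agreed on tumor 7, with differences from 0.79 to 1.29.

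Other genes of the pathway, 118 measured of 119 listed, shared the pattern to a lesser extent. They comprised further polymerase I factors, processome and exosome proteins, pre-60S factors and RNA helicases. Of these, 80 were highest in tumor 7, or 67.8%, and 6 were lowest there, against 17.3% and 26.4% of all genes tested. The median difference was 0.50. A difference of at least 1 was measured in 21 genes, 17.8%, against 4.59% of all genes. In the site comparison none was called in limma, with 10 at an unadjusted p under 0.05. Without tumor 8, 20 were called higher, 16.9% against 2.86% of all genes, and none lower.

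The 5 with the largest rise in tumor 7 included the helicase Dhx33, which was 10.82 there against 8.65 to 9.13 in the other tumors. Wdr46, a processome scaffold, was 11.55 against 9.64 to 10.27. The RNA acetyltransferase Nat10 was 10.21 against 8.33 to 9.01, and Naf1, an assembly factor of box H/ACA particles, 11.66 against 9.84 to 10.57. These 4 genes were called in the fit without tumor 8, with limma adjusted p-values of 0.0031, 0.0083, 0.016 and 0.019. Ftsj3, an rRNA methyltransferase of the pre-60S particle, had the largest difference, 2.09, but it ranged from 5.70 in tumor 1 to 8.24 in tumor 8 outside tumor 7 and was not called (limma adjusted p = 0.18).

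At the other end, Znrd1, a small subunit of RNA polymerase I, was 9.06 in tumor 7, below its range of 9.57 to 10.09 elsewhere. Nol3, which carries a nucleolar name but is known as an inhibitor of apoptosis, was 7.64 against 8.06 to 8.54. Differences of -0.45, -0.45 and -0.39 were measured for Tsr2, Exosc8 and Utp25. None of these 5 genes was called in limma without tumor 8.

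No comparable rise was measured for the genes of the ribosome's own proteins. Of 78 cytosolic ribosomal protein genes, 44 were measured and 43 tested. Their median difference in tumor 7 was 0.01, and 7 of the 43, 16.3%, were highest there, close to the 17.3% of all genes. The median level of these probe sets was 14.30, near the highest value on the arrays, 15.27, and whether a rise would be measurable there was not tested. A set of 45 DNA replication genes had a median of 0.07 with 6, or 13.3%, highest in tumor 7. No gene of either list was called in the site comparison in limma. Without tumor 8, the median difference of tumor 7 from the adrenal tumors was 0.01 for the ribosomal protein genes and 0.05 for the DNA replication genes.

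**Figure D4:**
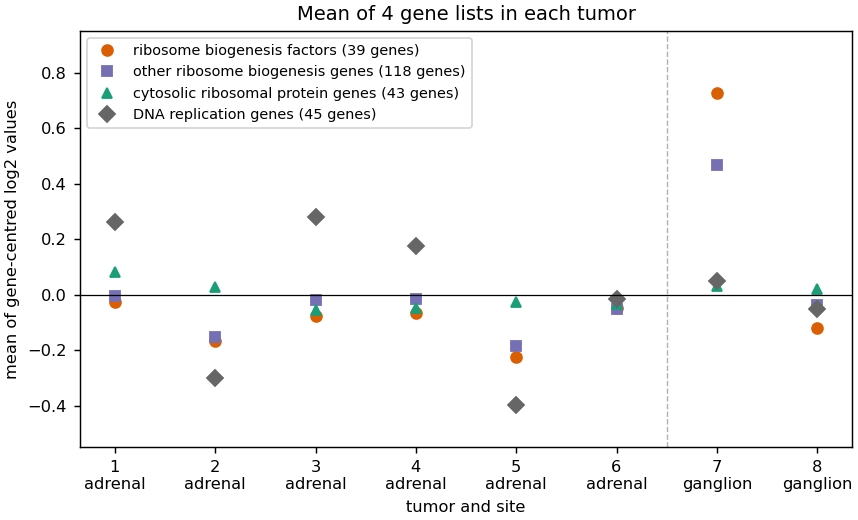
For each tumor, the points give the mean over the genes of 4 lists after each gene was centred on its own mean over the 8 tumors, on the log2 scale. In tumor 7 the 39 ribosome biogenesis factors stand at 0.73 and the other ribosome biogenesis genes at 0.47, while ribosomal protein genes and DNA replication genes stand at 0.03 and 0.05.

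Of 11 genes of the MYC family and its partners, 3 were highest and 6 lowest in tumor 7, with a median difference of -0.95. Of all genes tested, 17.3% were highest and 26.4% lowest in that tumor. Mycn was 7.96 there, and a second Mycn probe set read 7.04 against 6.86 to 9.51 in the others, while another was nearly level at 8.19 against 8.03 to 8.22. Myc was 7.03 in tumor 7 against 7.67 to 9.08, and Max, the partner of both, 9.55 against 7.92 to 9.22. These are probe sets of the mouse genes, and they give no level of the human transgene on its own. Low noradrenergic and high muscle markers stood beside the rise in the same tumor. The muscle list mean was 1.35 in tumor 7 and 0.75 in tumor 8, and the mean of the 39 genes was 0.73 and -0.12. The part of these markers in the rise was not tested.

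Outside tumor 7 the list means lay close together. Tumor 1 was the highest of the remaining 7 tumors for 21 of the 39 genes, whereas it was so for 31.1% of all genes tested. Tumor 5 held the lowest value for 15 of the 39 genes, or 38.5%, against 14.4% of all genes tested, and its list mean of -0.23 was the lowest. Tumor 2 followed with -0.17. In both tumors the DNA replication genes also had their lowest list means, -0.40 and -0.30. In tumor 6, which expressed the liver markers, the 39 genes had a list mean of -0.05. The 6 genes whose highest value was not in tumor 7 peaked in tumor 1 (Polr1c, Utp15, Wdr3 and Noc3l) or in tumor 2 (Wdr12 and Ddx18).

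The genes are scattered over the genome. The 39 genes lie on 17 chromosomes, with at most 5 on any one. Promoters were read from RefSeq (build GRCm38.p6) as the 250 bases before to 50 bases after the gene start, and were found for 33 of the 39 genes. The promoters of Fbl, Rrp12, Npm1, Rrs1, Bop1 and Tcof1 were not among those searched. That does not show that RefSeq lacks an entry for these genes. The E-box CACGTG, the site that MYC-MAX dimers prefer and a palindrome that reads alike on both strands, was searched in each. It was present in a promoter of 4 of the 33 genes, 12.1%. For comparison, it was in 8.09% of the 27025 genes with a searched promoter and in 7.15% of the 32851 promoters searched. Counted by gene, it was in a promoter of 21 of 99 other ribosome biogenesis genes, 21.2%. The share was 18.4% among DNA replication genes and 10.3% among ribosomal protein genes.

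The promoters that hold the motif are shown because MYC family proteins are known to bind it, with the motif in capitals and the gene's own strand read 5′ to 3′. They belong to Nop2 (chr6:125131633-125131932, plus strand), where the motif begins 60 bases before the start, Pes1 (chr11:3963725-3964024, plus strand), 3 bases after it, Utp20 (chr10:88826765-88827064, minus strand), 38 bases after it, and Wdr43 (chr17:71615965-71616264, plus strand), 18 bases after it. Polr1b (chr2:129100746-129101045, plus strand) is added as the gene with the largest difference in tumor 7 among those whose promoter was searched. These letters are not in its window.
Nop2: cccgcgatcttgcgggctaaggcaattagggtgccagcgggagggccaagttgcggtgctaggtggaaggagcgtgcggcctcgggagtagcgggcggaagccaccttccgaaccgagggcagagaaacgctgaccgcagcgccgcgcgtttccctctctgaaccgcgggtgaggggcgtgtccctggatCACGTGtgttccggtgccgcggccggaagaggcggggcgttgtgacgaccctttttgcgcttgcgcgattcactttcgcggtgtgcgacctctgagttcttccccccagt
Pes1: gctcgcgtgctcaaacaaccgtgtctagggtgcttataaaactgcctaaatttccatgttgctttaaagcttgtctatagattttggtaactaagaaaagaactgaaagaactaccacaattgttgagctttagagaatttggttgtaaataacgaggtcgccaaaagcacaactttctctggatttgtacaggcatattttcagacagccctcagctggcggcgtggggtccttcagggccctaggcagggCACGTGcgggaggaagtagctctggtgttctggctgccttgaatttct
Utp20: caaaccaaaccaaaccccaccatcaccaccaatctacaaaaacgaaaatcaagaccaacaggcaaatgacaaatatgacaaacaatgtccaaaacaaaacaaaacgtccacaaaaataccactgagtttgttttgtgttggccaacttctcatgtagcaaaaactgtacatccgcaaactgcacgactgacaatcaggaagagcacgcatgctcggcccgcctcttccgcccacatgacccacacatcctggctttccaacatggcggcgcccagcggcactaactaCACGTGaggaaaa
Wdr43: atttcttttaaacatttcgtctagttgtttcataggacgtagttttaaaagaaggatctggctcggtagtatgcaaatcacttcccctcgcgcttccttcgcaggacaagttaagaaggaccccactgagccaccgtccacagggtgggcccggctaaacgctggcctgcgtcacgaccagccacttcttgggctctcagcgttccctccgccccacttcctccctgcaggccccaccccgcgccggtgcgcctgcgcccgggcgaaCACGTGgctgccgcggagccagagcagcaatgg
Polr1b: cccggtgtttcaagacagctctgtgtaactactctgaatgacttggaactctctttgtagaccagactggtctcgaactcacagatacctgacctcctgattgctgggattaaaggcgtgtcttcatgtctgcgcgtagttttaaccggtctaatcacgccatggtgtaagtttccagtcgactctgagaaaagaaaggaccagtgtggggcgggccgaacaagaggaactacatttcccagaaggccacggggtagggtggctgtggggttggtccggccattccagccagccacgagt

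Of these genes, Pes1, Utp20 and Wdr43 were called in the fit without tumor 8 and Nop2, with a difference of 0.67 and a limma adjusted p of 0.32, was not. Polr1b was called with a difference of 1.50. A match of 6 letters describes the sequence and does not show that a factor was bound.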

How the data were processed

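RNA of 8 tumors was hybridised to Affymetrix mouse whole-genome arrays. The authors deposited log2 expression values for 45101 probe sets. RMA and Partek 6.6 stand in the submitters' processing notes and gcRMA in the Methods, and the values do not settle which was used. Both correct background and normalize between arrays, and nothing further was done to the values. No 2 arrays were identical. The number of arrays limits the precision.

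Probe sets were named from the platform annotation, with symbols updated through the Entrez identifiers (34754 matched). Those with several genes (932) or none (9211) were left out. Of several probe sets of a gene, that of the highest mean was used. The site comparison (2 ganglion against 6 adrenal tumors, 16254 genes) was fitted in R 4.3.3 by lmFit and eBayes of limma 3.58.1 with a Benjamini-Hochberg threshold of 0.05, after the step was tested on simulated data. Tumors are numbered through the series, so no number pairs the sites.

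The 40 genes and all lists were chosen with earlier results of these data known, the high values of tumor 7 included. All 40 genes are accounted for. Values per tumor are given for the genes with the highest and lowest mean of each role group, the 5 highest and 3 lowest SDs, the 5 largest and 5 smallest differences of tumor 7, and genes with 1 probe set detected in all tumors and another in none. In the other pathway genes, the 5 largest differences in each direction are named, and other names serve a count. As alternatives, each tumor was left out in turn, and other normalizations, filters, detection limits, limma settings and choices of probe set were run.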

Additional observations from a re-analysis of the deposited data

Results flagged for a closer look

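In 5 of the 39 genes, 1 of the 6 adrenal tumors lay far from the others, and chance flags about 1 in 20 such groups. The share flagged among all genes tested was not counted, so the 5 are not read as particular to these genes. The gap of that tumor to its nearest neighbour, as a share of the range of the 6 values, was 0.642 for Gar1 in tumor 2, 0.655 for Noc4l in tumor 5, 0.679 for Pes1 in tumor 1, 0.655 for Nop16 in tumor 5 and 0.662 for Ncl in tumor 1, against a limit of 0.625. In all 5 genes the outlying value was the lowest of the 6. Over all 8 tumors, tumor 7 lay far from the others in the mean of the 39 genes, with a share of 0.79, and in the mean of the other ribosome biogenesis genes, with 0.727, against a limit of 0.526. Both lists were chosen with the high values of tumor 7 known, so these 2 shares are descriptions and not tests.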

How the results depend on the processing

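In the site comparison, the number of genes called, 3 in the report, was 1 with the filter at the receptor-based limit and 6 with the median over probe sets, and it ranged from 2 to 952 when each tumor was left out in turn. The highest count came without tumor 8, and without tumor 7 there were 8. The number of ribosome biogenesis factors called ranged from 0 to 13 with each tumor left out, and that of other ribosome biogenesis genes from 0 to 20. Both highest counts came without tumor 8, and both counts were 0 under every other alternative that was run. The direction of uncalled differences turned in 22 of the 39 genes without tumor 7, in 3 without tumor 5 (Polr1c, Utp15 and Ddx18), in 1 without tumor 4 (Polr1c) and in 1 with the median over probe sets (Polr1a, to -0.49). The difference of tumor 7 was steadier, with a median of 0.82 to 0.95 and 32 to 36 genes highest in tumor 7 under the normalizations, the median over probe sets and each other tumor left out. Between 37 and 39 genes were detected in all tumors. The causes of these changes were not tested. No paired analysis was possible because no tumor number is shared between the sites. Signal over background limits the reading of 5 probe sets of these genes that were detected in no tumor.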
